A study of Homo sapiens with 51 samples.

Results

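The zinc-finger genes ZNF454, ZNF610, ZNF671, ZNF414 and ZNF117 were selected on the deposited counts themselves, because chromatin at their ends was less accessible in the line labelled DATG or in both mutant lines. Every region within 5 kb of a RefSeq GRCh38 gene end of these 5 genes was read, which gave 37 of the 404988 regions in 3 count tables. Of the 5 genes, 4 had such regions and 1, ZNF117, had none in any table. The level of each region is given as CPM, counts per 1000000 counts of the library in its own table after scaling, so levels are compared within a table only. Because the contrast of each mutant line with WT chose the genes, their levels by line are a description and carry no test.

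The assay was ATAC-seq, in which a transposase cuts accessible DNA, so more reads in a region mean more open chromatin. H1, a widely used line of human embryonic stem cells, was studied in 3 genotypes labelled WT, KO and DATG (ΔATG). Neither the edited gene nor the number of clones behind a line is named in the labels, so the edit was not checked at a gene. The 51 libraries comprised 6 from undifferentiated cells at day 0 (2 per genotype), 30 from days 1 to 5 under BMP4, which the labels call mesoderm (2 per genotype and day), and 15 from days 1, 4 and 5 under SMADi, a neural induction the labels call neuroectoderm. Under SMADi there were 6 WT, 5 KO and 4 DATG libraries, with a single library for DATG on days 1 and 5 and for KO on day 4. Since no label states that replicates were separate cultures, p-values speak of the spread among these libraries, and that spread may be technical. In such bulk libraries, fewer cells with an open region and less opening per cell cannot be told apart.

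Total counts per library ran from 4616521 to 7516259 at day 0, from 4019778 to 13850448 under BMP4 and from 7086918 to 23252871 under SMADi. One library stood apart: KO day 1 replicate b under SMADi. A scale was set from 135 regions that overlap those more than 2-fold apart between KO and DATG under BMP4, with 0 for the mean of the other KO libraries and 1 for DATG. That library lay at 0.945, while the other 4 KO libraries lay between -0.038 and 0.106 and the 4 DATG libraries between 0.902 and 1.016. SMADi levels of KO at member regions are therefore given with and without it, and fits at other genes where leaving it out changed the call or moved the value by over 1.5 times. All 8 pluripotency genes listed had a region within 1 kb of an end under both treatments. In WT from day 1 to day 5 under SMADi, where 23.9% of all regions rose and 17.1% fell, 3 of 24 regions at pluripotency genes rose and 13 fell, and at neuroectoderm genes 9 of 37 rose and 7 fell, which is near the share over all regions. Under BMP4, where 20.3% of all regions rose and 14.7% fell, 8 of 31 rose and 5 fell at pluripotency genes and 12 of 34 rose and 3 fell at mesoderm genes. There 2 of 28 rose and 4 fell at endoderm genes, and 4 of 23 rose and 2 fell at amnion and trophoblast genes. At neuroectoderm genes 6 of 43 rose and 4 fell. Under SMADi 3 of 33 rose and 5 fell at mesoderm genes, and 3 of 28 rose and 7 fell at endoderm genes. At amnion and trophoblast genes 2 of 20 rose and 8 fell. Against WT under BMP4, mesoderm genes had 11 of 34 regions lower and 0 higher in KO, and 6 and 0 in DATG. Neuroectoderm genes had 3 of 43 lower and 9 higher in KO, and 1 and 1 in DATG. Over all regions these were 12.4% and 9.1% in KO, and 5.21% and 4.12% in DATG.

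Zinc-finger genes of the KRAB family code for DNA-binding repressors. Their finger arrays read DNA, often in transposable elements, and the KRAB domain recruits the corepressor TRIM28, which brings histone methylation and heterochromatin. Many of these genes lie in clusters on chromosome 19, and their own CpG-rich starts are frequent sites of DNA methylation in cultured cells and tumours. ZNF454, ZNF610 and ZNF671 belong to this family. ZNF671 is known as a gene whose start is often methylated in cancer.

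The starts on which the comparison turns are shown as the 250 bases before the RefSeq start (GRCh38.p14). Capitals mark the bases covered by the accessible region of the BMP4 table. ZNF454, on the plus strand of chromosome 5 (window chr5:178940948-178941197), is shown because its region was nearly empty in both mutant lines. ZNF880, on the plus strand of chromosome 19 (chr19:52369673-52369922), is shown because the only region near ZNF610 lies on it and was nearly empty in DATG. ZNF671, on the minus strand of chromosome 19 (chr19:57727625-57727874), is shown because its start kept its counts at day 0 and under BMP4.

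ZNF454: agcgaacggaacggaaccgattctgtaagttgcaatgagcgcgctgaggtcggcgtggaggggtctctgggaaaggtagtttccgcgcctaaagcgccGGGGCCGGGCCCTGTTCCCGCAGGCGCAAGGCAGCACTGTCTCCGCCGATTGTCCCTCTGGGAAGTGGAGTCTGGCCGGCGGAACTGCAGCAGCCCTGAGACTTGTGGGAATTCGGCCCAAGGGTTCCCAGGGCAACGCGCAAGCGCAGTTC

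ZNF880: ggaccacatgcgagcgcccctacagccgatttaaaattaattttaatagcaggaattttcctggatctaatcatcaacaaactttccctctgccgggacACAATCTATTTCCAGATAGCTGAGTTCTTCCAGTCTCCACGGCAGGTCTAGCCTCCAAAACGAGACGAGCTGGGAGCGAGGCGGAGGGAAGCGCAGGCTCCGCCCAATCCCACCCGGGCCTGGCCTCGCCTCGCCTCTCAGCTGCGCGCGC

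ZNF671: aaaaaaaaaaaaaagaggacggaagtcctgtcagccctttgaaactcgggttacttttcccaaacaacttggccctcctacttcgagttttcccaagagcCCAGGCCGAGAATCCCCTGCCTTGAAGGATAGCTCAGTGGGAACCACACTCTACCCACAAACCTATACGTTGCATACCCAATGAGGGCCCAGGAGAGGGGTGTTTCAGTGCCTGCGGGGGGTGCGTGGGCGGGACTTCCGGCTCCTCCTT

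These 3 starts differ in base composition. The whole RefSeq windows of 300 bases, which add 50 bases after the start, hold 27 CpG at ZNF454, 20 at ZNF880 and 11 at ZNF671, and 22 at the ZNF414 start. The median over 35116 promoters of the same length was 14 CpG, and over the 712 whose symbols mark zinc-finger genes 22. As many CpG as ZNF454 has were found in 28.2% of all promoters and 32% of zinc-finger promoters. Both strands were searched for the GC box GGGCGG, which 45% of all promoters hold, the CCAAT box CCAAT (34.6%) and the ETS-type motif CCGGAAG (10.3%). Among zinc-finger promoters the shares were 60%, 42.4% and 33%. ZNF454 matched none of the 3, while ZNF880 and ZNF671 each held 1 of each. The ETS-type match of ZNF880 lies in the 50 bases after the start, which are not shown above. The ZNF117 window held 2 CpG.

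ZNF454 was the member whose start held few counts in both mutant lines. Its region (chr5:178941046-178941246 in the BMP4 table) overlaps the starts of ZNF454 (chr5:178941198-178990028) and of ZNF454-DT, a divergent transcript on the other strand, so reads of the pair cannot be told apart. Under BMP4 the 10 WT libraries ranged from 4.20 to 7.53 CPM with a median of 5.55. The 10 KO libraries ranged from 0.119 to 0.444 CPM (median 0.265), which is 1 to 3 counts in each. The 10 DATG libraries ranged from 0 to 0.502 CPM (median 0.148), and 4 of them held no count. No mutant library overlapped WT on any day.

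Pooled within days, KO held 4.98% of the WT level at the ZNF454 start under BMP4 (95% exact interval 2.97 to 7.87%) and DATG 2.55% (1.21 to 4.72%). These intervals, and those below, come from counts pooled over libraries, so they cover counting error only and leave out the spread between libraries. The reads also carry no molecular identifiers. Under SMADi the WT libraries ranged from 6.85 to 12.6 CPM with a median of 9.34. The KO libraries were at 0.157 and 0.0688 CPM on day 1, 0.0673 on day 4, and 0.0716 and 0 on day 5. The DATG libraries were at 0.166 CPM on day 1, 0.134 and 0.121 on day 4, and 0.0928 on day 5. That is 0.690% of WT in KO (0.224 to 1.62%), 0.656% without KO day 1 replicate b, and 1.22% in DATG (0.525 to 2.41%). The day 0 table has no region at this start.

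At the other end of ZNF454, 1 region was near the WT level and another was lower in both mutant lines under SMADi. A region near GRM6, a glutamate receptor gene, lies 4637 bp beyond the ZNF454 end in the BMP4 table, just inside the 5 kb limit. It held 115% of the WT level in KO and 106% in DATG under BMP4, 95.1% and 83.2% at day 0, and 99.0% (105.6% without KO day 1 replicate b) and 103% under SMADi. Another region, 2385 bp beyond the end and present in the SMADi table only, was at 0.240 and 0.260 CPM in WT on day 1 and reached 2.69 and 2.87 on day 4 and 3.38 and 4.44 on day 5. In KO it went from 0.235 and 0.0688 CPM on day 1 to 2.36 on day 4 and to 1.93 and 2.30 on day 5. In DATG the values were 0.0831 CPM on day 1, 1.68 and 1.51 on day 4, and 1.35 on day 5. The region was thus low on day 1 in all 3 lines and higher later in all 3, and held 60.1% (60.8% without KO day 1 replicate b) and 44.7% of the WT level in KO and DATG.

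ZNF610 was a member at which the mutant lines lay far apart at day 0 and under BMP4. ZNF610 spans chr19:52330221-52367778. No region lay within 5 kb of its start coordinate, and its only region (chr19:52369772-52369972 under BMP4) lies 1994 bp beyond its end coordinate, on the start of ZNF880, another KRAB zinc-finger gene. The counts therefore describe the ZNF880 start at least as much as ZNF610. At day 0 the WT libraries were at 5.17 and 3.95 CPM and the KO libraries at 5.50 and 6.08. The DATG libraries were at 0.133 and 0.314 CPM, from 1 and 2 counts. DATG stood below both other lines, and KO was not reduced, at 123% of WT (85.5 to 178%) against 4.64% in DATG (0.931 to 14.2%).

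Under BMP4 the same order held at the region beside ZNF610. The WT libraries ranged from 3.22 to 4.29 CPM (median 3.73), KO from 2.33 to 5.13 (median 3.97) and DATG from 0.118 to 0.836 (median 0.284). KO spanned the WT range and held 107% of the WT level (91.0 to 127%). DATG held 9.48% (6.04 to 14.3%) and did not overlap either other line. By day, DATG held between 3.62% of WT on day 3 and 17.6% on day 2, from 2 to 8 counts a day. KO was at 134% on day 4 and at 70.9% on day 5, where both KO libraries, at 2.68 and 2.33 CPM, lay below both WT libraries, at 3.83 and 3.31.

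Under SMADi both lines were lower beside ZNF610, to different extents. The WT libraries ranged from 5.51 to 11.0 CPM with a median of 7.37. KO was at 2.82 CPM in day 1 replicate a, 2.16 on day 4, and 3.86 and 3.39 on day 5, while day 1 replicate b, the library that lay near DATG, was at 0.0688. DATG was at 0 CPM on day 1, 0.0672 and 0 on day 4, and 0 on day 5, which is 1 count in 4 libraries. Without the library that stood apart, KO held 39.8% of WT (33.5 to 47.1%) and every KO library lay between DATG and WT. With it, KO held 31.7% (26.6 to 37.5%). DATG held 0.210% (0.00532 to 1.18%). A library with no count is at or under the floor of 3 counts, which is 0.139 to 0.249 CPM in the DATG libraries.

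**Figure D1:**
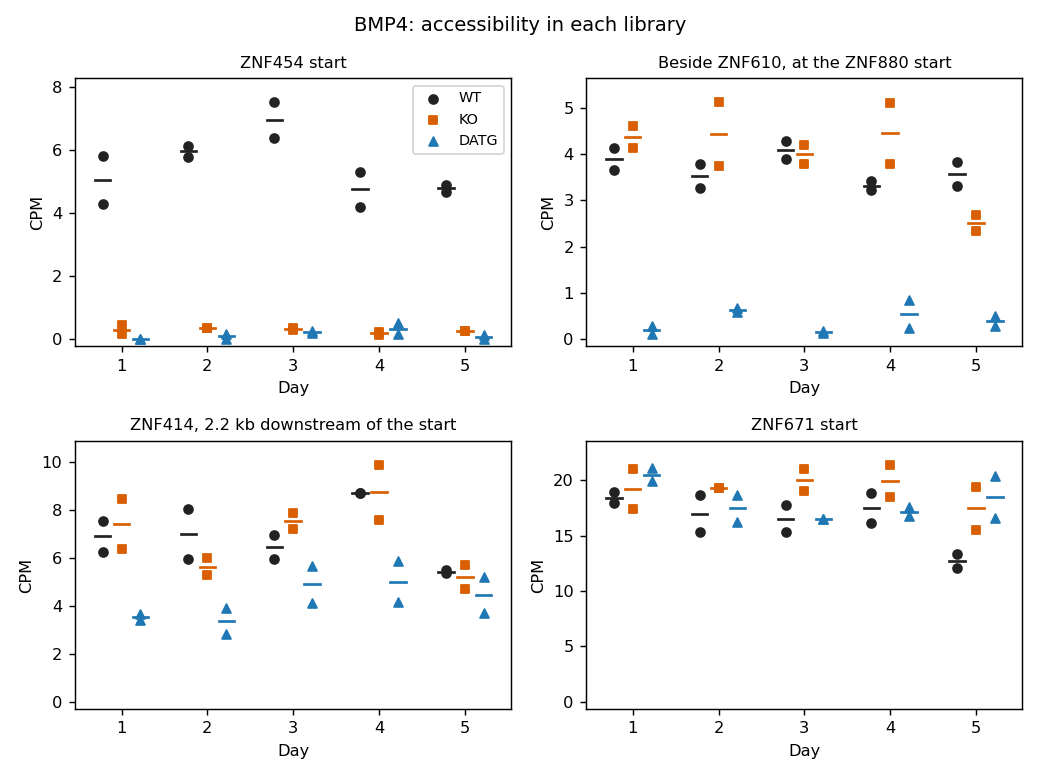
Accessibility (CPM, linear axis) on days 1 to 5 under BMP4 at 4 regions; each point is 1 library, with 2 per line and day, and the short bar is their mean. WT, KO and DATG are circles, squares and triangles. Both mutant lines sit near 0 at the ZNF454 start, DATG alone sits low beside ZNF610, and DATG is lower in part at ZNF414 (58.9% of WT). At the ZNF671 start the ranges of the lines over all days overlap, and on day 5 both mutant lines lie above WT.

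ZNF671 had its lowest mutant levels at the 3′ end and not at the start. Its start region (chr19:57727574-57727774 under BMP4) held 109% of the WT level in KO and 107% in DATG at day 0. Under BMP4 it held 118% and 108%. On day 5 of BMP4 it held 136% in KO and 140% in DATG, and every mutant library lay above both WT libraries, at 12.1 and 13.4 CPM. Under SMADi it held 75.2% in KO (71.2% without day 1 replicate b) and 74.7% in DATG. On day 1 the lines were close, at 19.5 and 21.1 CPM in WT, 19.2 and 17.8 in KO and 19.1 in DATG. On days 4 and 5 WT was at 13.8 to 17.3 CPM, and all mutant libraries were at 8.59 to 11.8.

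The large differences at ZNF671 lay at its 3′ end, in a pair of regions that only the SMADi table holds. One (chr19:57719546-57719746) lies 5 bp beyond the end of the gene and 8.0 kb downstream of its start. WT was at 0.481 and 0.585 CPM there on day 1, 5.20 and 4.73 on day 4, and 1.32 and 1.99 on day 5. KO stayed at 0.0784 and 0.138 CPM on day 1, 0.0673 on day 4, and 0.143 and 0.0639 on day 5. DATG was at 0.166 CPM on day 1, 0.202 and 0.121 on day 4, and 0.0928 on day 5. In WT the region was most open on day 4, and each mutant library held 1 to 3 counts, below every WT library. KO held 4.97% of WT (1.97 to 10.4%), 3.75% without day 1 replicate b and 8.93% without the lone day 4 library, and DATG 4.49% (2.02 to 8.68%).

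The second ZNF671 region (chr19:57719922-57720122), 171 bp inside the gene's 3′ end, was also below WT in every mutant library, with a smaller gap on day 1. WT was at 1.02 and 1.49 CPM on day 1, 3.26 and 4.61 on day 4, and 1.47 and 1.39 on day 5. KO was at 0.314 and 0.413 CPM on day 1, 0.135 on day 4, and 0.143 and 0 on day 5. DATG was at 0.997 CPM on day 1, just under the lowest WT library, then at 0.269 and 0.121 on day 4 and 0.186 on day 5. KO held 10.4% of WT, 6.88% without day 1 replicate b, and DATG 13.0%.

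**Figure D2:**
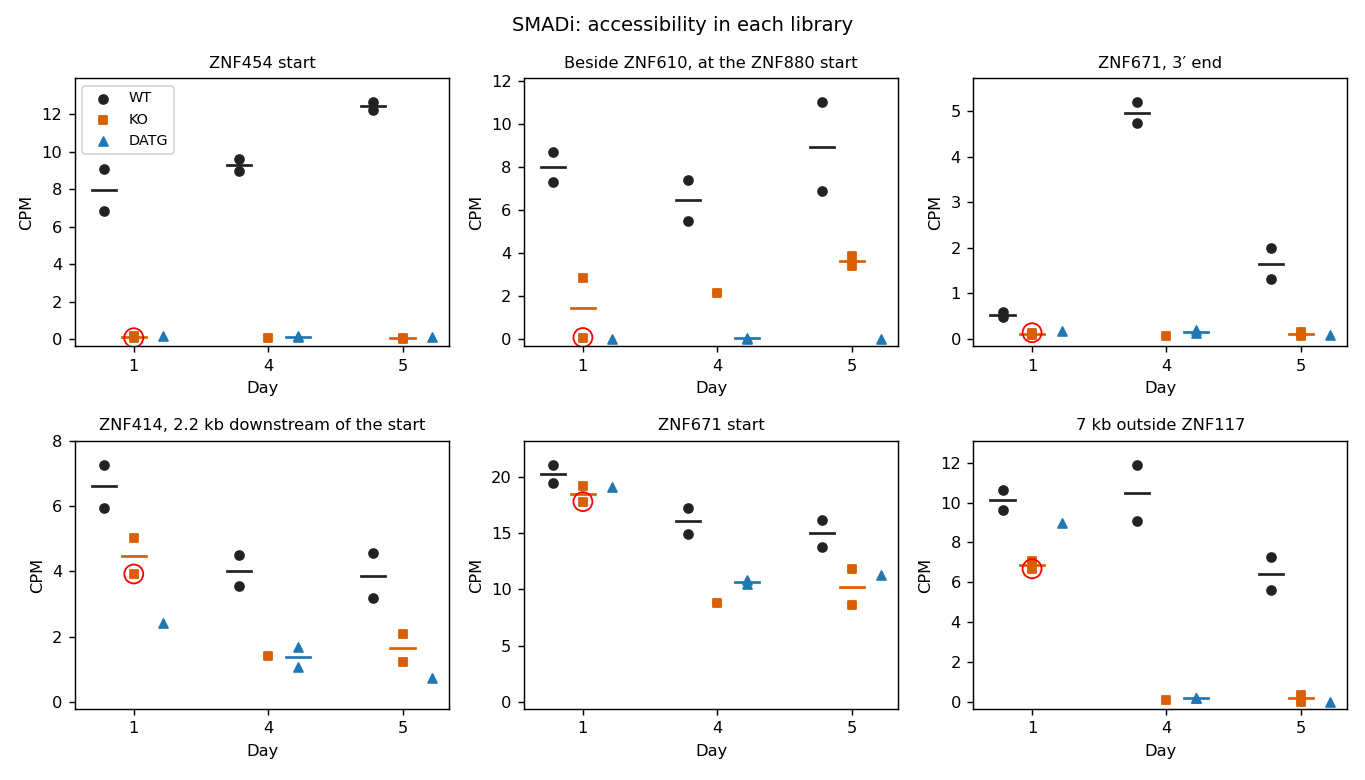
Accessibility (CPM, linear axis) on days 1, 4 and 5 under SMADi at 6 regions; each point is 1 library and the short bar the mean where a line and day has 2. WT, KO and DATG are circles, squares and triangles, and the red ring marks KO day 1 replicate b. That library is at 0.0688 CPM beside ZNF610, where the other KO libraries are at 2.16 to 3.86, and the region 7 kb outside ZNF117 is open in all lines on day 1 and near 0 in both mutant lines on days 4 and 5.

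ZNF414 codes for a zinc-finger protein outside the KRAB family, and its lower DATG level was partial and confined to a pair of its regions at day 0 and under BMP4. It spans chr19:8509678-8514167 on the minus strand and had 8 member regions at day 0, then 9 in the BMP4 table and 6 in the SMADi table. At day 0 and under SMADi the lowest level in DATG relative to WT was at a region about 2.2 kb downstream of the start, inside the gene (chr19:8511844-8512044 at day 0). At day 0 the WT libraries were at 13.4 and 14.0 CPM, KO at 13.9 and 10.6, and DATG at 4.92 and 4.55. DATG held 34.8% of WT (25.8 to 46.4%) and lay below both other lines, while KO held 92.0% and overlapped WT.

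Under BMP4 the WT libraries at this ZNF414 region ranged from 5.36 to 8.72 CPM (median 6.61), KO from 4.72 to 9.88 (median 6.78) and DATG from 2.81 to 5.85 (median 4.02). DATG held 58.9% of WT (51.0 to 67.9%) but overlapped its range, and KO held 100%. Under SMADi WT was at 5.95 and 7.28 CPM on day 1, 4.51 and 3.55 on day 4, and 4.56 and 3.18 on day 5. KO was at 5.02 and 3.92 CPM on day 1, 1.41 on day 4, and 2.08 and 1.21 on day 5. DATG was at 2.41 CPM on day 1, 1.08 and 1.70 on day 4, and 0.742 on day 5. DATG lay below every WT library, at 31.4% of WT (24.7 to 39.6%). KO, at 54.9% (53.1% without day 1 replicate b), overlapped WT only through its day 1 libraries.

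The neighbouring ZNF414 region was lower in DATG as well, and those farther off less so or not at all. At 2.5 kb, DATG held 51.6% of WT at day 0 and 55.2% under BMP4, with KO at 91.9% and 102%. At 1.8 kb, DATG held 84.2% and 105% and, under SMADi, 60.5%, with KO at 91.8%, 122% and 65.7% (58.7% without day 1 replicate b). The start region itself held 95.9% to 119% of WT in either line in the 3 tables (120.9% in KO under SMADi without that library). A region 7.9 kb downstream, beyond the 3′ end, was higher in the mutant lines under SMADi, at 144% in KO (150.6% without it) and 156% in DATG.

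**Figure D3:**
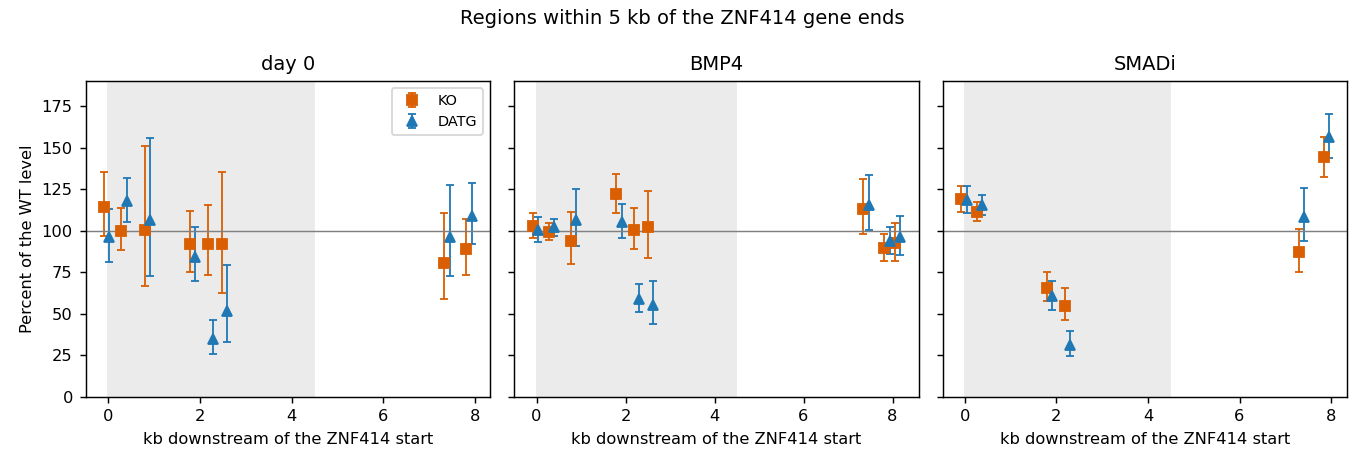
Level in KO (squares) and DATG (triangles) as a percentage of the WT level at each region within 5 kb of the ZNF414 ends, by distance downstream of the gene start, in the 3 tables; bars are 95% exact intervals for counting error, the grey band is the gene and the line marks 100%. DATG drops to 34.8%, 58.9% and 31.4% at 2.2 kb, while the start region stays between 95.9% and 119%.

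ZNF117 (chr7:64971772-64991036, minus strand) had no region within 5 kb of either end. It is also part of ERV3-1-ZNF117, a readthrough gene that begins at ERV3-1, which derives from an endogenous retrovirus. The nearest region, 6980 bp away under BMP4 and 7010 bp under SMADi, falls just outside the limit and inside that readthrough (chr7:64998046-64998246 under SMADi). At day 0 it held 110% of WT in KO and 93.4% in DATG, and under BMP4 111% and 108%. Under SMADi on day 1 WT was at 10.6 and 9.62 CPM, KO at 7.06 and 6.68, and DATG at 8.97.

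Later under SMADi the lines parted at this region near ZNF117. WT was at 11.9 and 9.09 CPM on day 4 and at 5.59 and 7.28 on day 5. KO was at 0.0673 CPM on day 4 and at 0.358 and 0 on day 5. DATG was at 0.202 and 0.182 CPM on day 4 and 0 on day 5. KO and DATG thus held 67.6% and 88.5% of WT on day 1 and at most 2.50% on the later days. Under BMP4 the same region fell in WT from day 1 to day 5 by 2.15 on the log2 scale (SE 0.28, edgeR quasi-likelihood adjusted p = 1.57e-10), with means of 7.89 and 1.81 CPM, and the mutant lines had similar means on day 1 (8.71 CPM in KO, 8.97 in DATG) and day 5 (2.12 and 2.62).

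Counted over all member regions, those that lay below WT in every mutant library were few outside SMADi. At day 0 they were 1 of 11 in KO, a ZNF414 region at 80.7% of WT, and 3 of 11 in DATG, beside ZNF610 and at 2.2 and 2.5 kb in ZNF414. With 2 libraries a line, 18.9% and 19% of all day 0 regions did so. Under BMP4 they were 1 of 13 in KO (ZNF454) and 2 of 13 in DATG (ZNF454 and ZNF610), against 0.11% and 0.0436% of all regions. Under SMADi they were 4 of 13 in KO, with or without day 1 replicate b, and 5 of 13 in DATG, against 1.52% and 1.96%. Since the genes were chosen by this contrast, nothing is read from these counts.

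The time course within WT was not used to choose the genes. It was therefore tested with edgeR's quasi-likelihood test and Benjamini-Hochberg adjustment over all regions of a table, except at SMADi regions set apart below. Under BMP4, 1 of 13 member regions rose from day 1 to day 5 and 3 fell, where 20.3% of all regions rose and 14.7% fell (58% of the calls upward, and 41.1% when libraries were scaled by total counts, which moved the median of all regions from -0.03 to -0.17). The ZNF414 region at 7.4 kb fell by 0.90 (SE 0.24, adjusted p = 0.00148) on the log2 scale. The ZNF671 start fell by 0.52 (SE 0.15, adjusted p = 0.0048), the ZNF414 region at 1.8 kb fell by 0.46 (SE 0.18, adjusted p = 0.0352), and the one at 0.3 kb rose by 0.58 (SE 0.14, adjusted p = 0.000953). The ZNF454 start (-0.10, SE 0.24, adjusted p = 0.783) and the region beside ZNF610 (-0.15, SE 0.27, adjusted p = 0.699) were not called. Of the 4 calls, the one at 7.4 kb held under every alternative tried, while each of the others was lost when 1 WT day 1 or day 5 library was left out (largest adjusted p 0.268).

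Under SMADi 4 of 13 member regions rose in WT from day 1 to day 5 and 3 fell, where 23.9% of all regions rose and 17.1% fell. The 4 include the regions beyond the ends of ZNF454 and ZNF671, which are set apart, so nothing is read from this count. The ZNF454 start rose by 0.64 (SE 0.24, adjusted p = 0.0251). In ZNF414 the region at 0.3 kb rose by 0.44 (SE 0.12, adjusted p = 0.00394), and those at 1.8 and 2.2 kb fell by 0.77 (SE 0.24, adjusted p = 0.00859) and 0.83 (SE 0.30, adjusted p = 0.0225). The ZNF671 start fell by 0.41 (SE 0.16, adjusted p = 0.0395). The regions beyond the ends of ZNF454 and ZNF671 are in the SMADi table only and are highest in WT on days 4 and 5. They may have entered it through the libraries in which they are high, so their rises are a description and carry no test. Each of the other calls was lost when 1 WT library of day 1 or day 5 was left out, and the rise at the ZNF454 start was then as low as 0.43.

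Whether the gap between a mutant line and WT changed from day 1 to day 5 under BMP4 was tested as an interaction. None of the 13 member regions was called for KO or for DATG with edgeR (smallest adjusted p 0.278 and 0.65), where 2.09% and 0.076% of all regions were (36.6% and 30.6% of these calls upward, and 53.7% and 50% with total counts). At an unadjusted p under 0.05 there was 1 for KO and 0 for DATG, and DESeq2 called 0 for each. For the ZNF454 start the DATG estimate was 2.78 with an SE of 2.04, so these few counts leave a wide range. The same interaction under SMADi was added after the data were seen, and DATG then has 1 library on each of the 2 days. Of 13 member regions 1 was called for each line, the ZNF414 region at 7.9 kb, where 18.9% and 13.9% of all regions were called. Its gap to WT was larger on day 5 by 0.72 in KO (SE 0.22, adjusted p = 0.0201) and by 0.95 in DATG (SE 0.27, adjusted p = 0.018). The KO call was lost with total counts (adjusted p = 0.0597) and without KO day 1 replicate a (0.103), KO day 5 replicate b (0.0786), WT day 1 replicate a (0.0522) or WT day 1 replicate b (0.059), and the DATG call with DESeq2 (0.0512).

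The genes around the members were then read at regions within 500 kb of a member's ends, leaving out the member regions. At day 0, 3 of 287 such regions were lower and 1 higher in KO, where 0.0318% and 0.0537% of all regions were. In DATG 0 were lower and 1 was higher, where 0.165% and 0.0408% were. Of the 287, 23 had an unadjusted p under 0.05 in DATG, and DESeq2 called 0. Under BMP4, 41 of 368 were lower and 27 higher in KO, against 12.4% and 9.1% of all regions, and 14 and 13 in DATG, against 5.21% and 4.12%. Under SMADi, 109 of 388 were lower and 39 higher in KO (101 and 30 without day 1 replicate b), against 21.6% and 17.9%, and 96 and 23 in DATG, against 17.4% and 11.1%.

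By member, the SMADi neighbours of ZNF610 held the most lower calls, where 21.6% of all regions were lower in KO and 17.4% in DATG. There 35 of 90 regions were lower and 2 higher in KO, and 36 and 1 in DATG. Around ZNF671 25 of 89 were lower and 5 higher in KO, and 26 and 2 in DATG. Around ZNF454 10 of 54 were lower and 7 higher in KO, and 9 and 4 in DATG, and around ZNF414 29 of 114 were lower and 21 higher in KO, and 20 and 14 in DATG. Around ZNF117 10 of 41 were lower and 4 higher in KO, and 5 and 2 in DATG. Regions at zinc-finger genes within 1 Mb of a member gave 54 lower and 15 higher of 232 in KO under SMADi (52 and 10 without day 1 replicate b), near the 21.6% and below the 17.9% of all regions. In DATG they gave 53 and 8, against 17.4% and 11.1%. Under BMP4 they gave 13 lower and 10 higher of 210 in KO, against 12.4% and 9.1%, and 5 and 2 in DATG, against 5.21% and 4.12%. At day 0 they gave 1 lower of 179 in KO and 0 in DATG, where 0.0318% and 0.165% of all regions were lower. Neighbouring regions share clusters and are not independent, and no test of these counts was made.

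The named neighbour closest to ZNF454 differed from it in DATG under BMP4. ZNF354C, a KRAB zinc-finger gene 70220 bp from ZNF454, fell in KO under BMP4 by 3.88 on the log2 scale (SE 0.18, adjusted p = 6.89e-37) and rose in DATG by 0.59 (SE 0.09, adjusted p = 1.25e-06). WT lay at 5.79 to 9.03 CPM there and no KO library exceeded 0.906. At day 0 it fell in KO by 4.08 (SE 0.39, adjusted p = 7.61e-16), and the DATG difference was 0.54 (SE 0.19, adjusted p = 0.315). Under SMADi the KO change was -5.52 (SE 0.91, adjusted p = 0.00346), with 7.16 CPM in KO day 1 replicate b and at most 0.286 in the other KO libraries. Without that library it was -7.34 (SE 0.32, adjusted p = 5.6e-19). In DATG under SMADi the ZNF354C change was -1.03 (SE 0.52, adjusted p = 0.2). The DATG libraries lay at 6.05 to 9.72 CPM there, below the WT range of 12.3 to 22.2. ZNF454 was thus low in both lines, while its neighbour ZNF354C was low in KO and not in DATG at day 0 and under BMP4. Under SMADi ZNF354C was lower in DATG than in WT without being called.

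Near ZNF610 the neighbours described here fell in both lines under SMADi. The one near ZNF117 fell in KO at day 0 and under both treatments. ZNF528-AS1, an antisense transcript gene 29904 bp from ZNF610, had a region that fell under SMADi in KO by 6.18 (SE 0.41, adjusted p = 4.58e-15) and in DATG by 4.82 (SE 0.36, adjusted p = 1.56e-13). WT lay at 3.25 to 6.76 CPM and no mutant library exceeded 0.269. ZNF649, a KRAB zinc-finger gene 424255 bp away, fell by 2.30 in KO (SE 0.27, adjusted p = 1.01e-08) and 2.40 in DATG (SE 0.29, adjusted p = 3.05e-08). On chromosome 7, the noncoding gene LOC100128885, 397049 bp from ZNF117, fell by 5.89 in KO under BMP4 (SE 0.28, adjusted p = 1.73e-35) and rose by 0.61 in DATG (SE 0.10, adjusted p = 1.17e-05). At day 0 it fell by 3.92 in KO (SE 0.47, adjusted p = 2.71e-10). Under SMADi a region beside it fell by 5.12 in KO (SE 0.59, adjusted p = 7.94e-08). KO day 1 replicate b was at 2.82 CPM there and the other KO libraries at 0.157 or less.

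Around ZNF671 and around ZNF414 the neighbours described here changed in both directions under SMADi. ZSCAN1, a zinc-finger gene of the SCAN family 327705 bp from ZNF671, fell under SMADi by 1.78 in KO (SE 0.18, adjusted p = 1.18e-10) and 1.92 in DATG (SE 0.19, adjusted p = 1.68e-10), and rose by 0.63 in KO under BMP4 (SE 0.12, adjusted p = 9.13e-06). ZNF274, whose KRAB protein binds other zinc-finger genes, fell by 1.75 and 1.57 under SMADi (SE 0.23 and 0.24, adjusted p = 1.05e-07 and 1.62e-06). A region near LOC124904782, 123223 bp from ZNF671, went the other way under SMADi. It rose by 1.83 in KO (SE 0.28, adjusted p = 1.21e-06) and 1.19 in DATG (SE 0.34, adjusted p = 0.0064). Near ZNF414, MBD3L1, a gene related to methyl-CpG-binding proteins, rose by 0.85 and 0.82 (SE 0.11 for each, adjusted p = 2.25e-08 and 1.89e-07). HNRNPM, an RNA-binding protein gene 21035 bp away, rose by 1.46 in KO (SE 0.22, adjusted p = 8.55e-07) and 1.16 in DATG (SE 0.35, adjusted p = 0.0102). ACTL9, an actin-like gene, fell by 1.11 (SE 0.18, adjusted p = 7.57e-06) and 0.67 (SE 0.18, adjusted p = 0.00431).

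**Figure D4:**
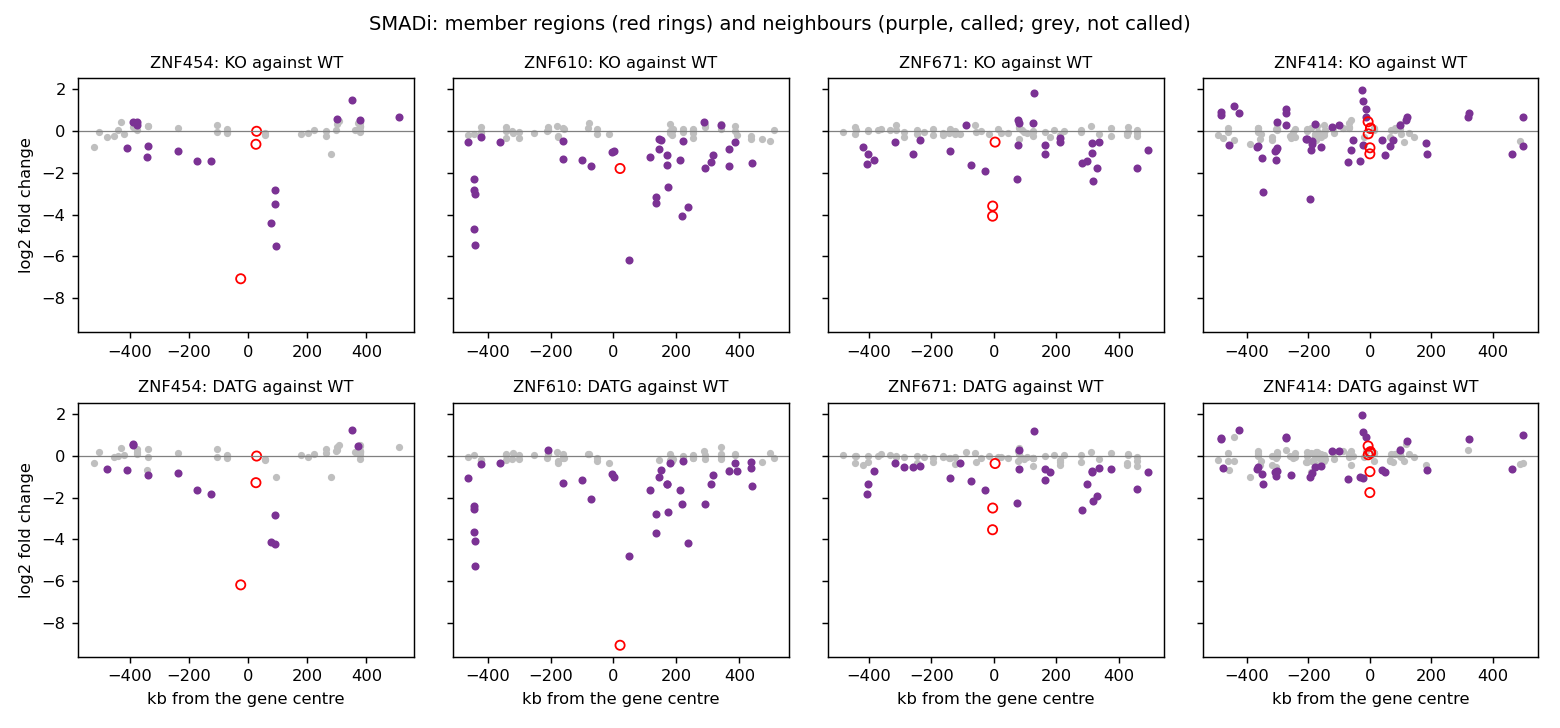
Fitted log2 fold change against WT under SMADi for regions within 500 kb of 4 members, by distance in kb from the gene's centre; KO is above and DATG below. Red rings are member regions, which carry no test, and purple and grey points are neighbours called or not called. Fitted values of nearly empty regions depend on the prior count. Around ZNF610 most called neighbours lie below 0 (35 lower and 2 higher in KO).

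The machinery that KRAB zinc-finger proteins recruit was read from a list of 22 genes, of which 21 had a region within 1 kb of an end. None of the 52 regions was called in either line at day 0 with edgeR or DESeq2, with 9 at an unadjusted p under 0.05 in KO and 6 in DATG. Under BMP4 2 of 68 were lower and 2 higher in KO, where 12.4% and 9.1% of all regions were, and 0 and 1 in DATG, against 5.21% and 4.12%. Under SMADi 4 of 66 were lower and 14 higher in KO, where 21.6% and 17.9% of all regions were, and 3 and 5 in DATG, against 17.4% and 11.1%. Regions over 1.5-fold apart are named here, and most of the higher calls were smaller than that. SUV39H1, which methylates histone H3 in heterochromatin, had a region that rose by 0.68 in KO (SE 0.22, adjusted p = 0.012). EHMT1, the partner of EHMT2, had one that fell by 0.68 in KO (SE 0.23, adjusted p = 0.0156). EHMT2, which methylates histone H3, had a region that fell by 0.83 in KO (SE 0.18, adjusted p = 0.000277) and 0.66 in DATG (SE 0.18, adjusted p = 0.00544). HDAC1, a histone deacetylase, had 2 regions that fell in both lines, 1 of them by 0.73 (SE 0.20, adjusted p = 0.00274) and 0.75 (SE 0.20, adjusted p = 0.00461).

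Of 13 genes of DNA methylation, 10 had a region. At day 0, 0 of 23 regions were called in either line by either tool, with 2 and 1 at an unadjusted p under 0.05. Under BMP4 1 of 28 was lower and 1 higher in KO with edgeR, against 12.4% and 9.1% of all regions. In DATG 0 were called by either tool, against 5.21% and 4.12% with edgeR, and 3 had an unadjusted p under 0.05. Under SMADi 1 of 26 was lower and 7 higher in KO, against 21.6% and 17.9% of all regions, and 1 and 4 in DATG, against 17.4% and 11.1%. TET3, which oxidises methylated cytosine, had the lower region, which fell by 0.96 in KO (SE 0.14, adjusted p = 7.19e-07) and 0.84 in DATG (SE 0.14, adjusted p = 1.82e-05). TET2, a related enzyme, had a region that rose by 0.63 in KO (SE 0.14, adjusted p = 0.000611).

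Regions whose log2(CPM + 0.5) followed a member most closely over the 30 BMP4 libraries are given as a description, since the points share lines, days and libraries. Each is named by the nearest protein-coding gene end, which can be far away. The closest to the region beside ZNF610 was at CHCHD2, a mitochondrial protein gene (Pearson r = 0.943), with mean levels of 10.3 CPM in WT, 6.79 in KO and 0.266 in DATG. Regions 7383 bp from PARK7 (r = 0.927) and at CEBPZOS (r = 0.919) followed, with DATG at 1.95 and 0.613 CPM against 8.39 and 3.41 in WT. For the ZNF454 start the first lay 4342 bp from AURKB, a mitotic kinase gene (r = 0.932). It was at 6.02, 0.635 and 0.530 CPM in WT, KO and DATG. Regions 16764 bp from TGFBI (r = 0.913) and 10775 bp from DCSTAMP (r = 0.876) came next. The CEBPZOS region also followed the ZNF414 region at 2.5 kb (r = 0.743), after regions 29104 bp from RGCC (0.773) and at NUBPL (0.762). For the ZNF671 start, its only region in that table, the first was 247724 bp from GINS2 (r = 0.827). Regions 54804 bp from ARHGAP8 (0.805) and 1131 bp from CLDN19 (0.802) followed.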

How the data were processed

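ATAC-seq reads had been counted by the authors in 201-bp regions, and the deposited values are whole-number counts that are not normalized, in 1 table each for day 0, BMP4 and SMADi. The submitters' processing notes name MACS2 and GRCh38. The aligner, the peak settings, duplicate removal and whether reads were shifted for the transposase are steps not given in the sources used here. The files pair no region with a gene, so genes came from RefSeq tables, and no genome sequence was used here.

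Libraries were scaled by TMM, regions filtered by filterByExpr (100582, 142083 and 162313 tested) and fitted with edgeR 4.0.16 (robust quasi-likelihood, R 4.3.3), with 1 mean per genotype and day. Genotype contrasts average the differences within days. Calls have a Benjamini-Hochberg adjusted p under 0.05 over all regions of a table. In tests on simulated counts with 20000 regions, 67% of 2-fold changes from WT day 1 to day 5 were recovered under BMP4 and 36% under SMADi. In groups with 2 libraries, replicates differed by more than sampling noise, in some only slightly (chi-square per degree of freedom 1.03 to 3.11). Groups with 1 library could not be assessed.

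The members and lists were chosen with earlier results of these data known. Neighbours were named as up to 3 genes per member and table with the smallest adjusted p within 1 kb of a gene end, not all of which are described; listed genes were named when more than 1.5-fold apart. Alternatives were DESeq2 1.42.0 (Wald test and size factors), total counts, no filter, a replicate block, a 1 Mb window and each library left out. Gene lists covered pluripotency, mesoderm, neuroectoderm, endoderm, amnion and trophoblast, KRAB corepressors with heterochromatin, and DNA methylation.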

Additional observations from a re-analysis of the deposited data

How the results depend on the processing

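Of the recomputed counts of regions called, over all regions or among neighbours, 497 stayed within 1.5 times their value and 56 did not. DESeq2's Wald test called 19 regions for KO at day 0 (86 with edgeR), 13 for DATG at day 0 (207), 18658 for KO under BMP4 (30494), 4523 for DATG under BMP4 (13247) and 29099 for WT day 5 against day 1 under BMP4 (49643). For the interactions it called 60 for KO (2974) and 12 for DATG (108). Among neighbours it called 0 higher in either line at day 0 (1 in each), and under BMP4 15 higher in KO (27) and 5 in DATG (13). The replicate letters do not pair the libraries: deviations of same-lettered libraries correlated between -0.127 and 0.161 in the BMP4 table, and no label says the letters share a batch. With a replicate block, DATG at day 0 had 123 calls and 0 higher neighbours, all other counts stayed within 1.5 times, and no call on a member changed. With total counts DATG also had 0 higher neighbours at day 0.

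A window of 1 Mb gave 1 lower neighbour for DATG at day 0, under BMP4 62 lower and 71 higher in KO with 26 and 22 in DATG, and under SMADi 216 and 109 in KO with 194 and 62 in DATG, because it holds more regions. With each library left out in turn, calls ranged from 41 to 183 for KO and from 31 to 278 for DATG at day 0. They ranged from 31100 to 51526 for WT day 5 against day 1 under BMP4, from 500 to 4186 for the KO interaction and from 9 to 411 for the DATG interaction. Under SMADi they ranged from 39134 (without the lone KO day 4 library) to 66617 for KO and from 23683 (without the DATG day 5 library) to 72295 (without the DATG day 1 library) for DATG. Higher neighbours ranged from 0 to 1 for either line at day 0, from 23 to 56 for KO and from 12 to 50 for DATG under SMADi. When a line and day had 1 library, it was assumed to vary like the other groups.

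With each library left out in turn, member levels were recomputed only at each member's region lowest in DATG relative to WT in a table. Some of these levels crossed the WT level. The region near GRM6 at the far end of ZNF454 held 83.2% of WT in DATG at day 0. It held 108.5% without WT replicate b and 63.3% without WT replicate a. In KO at day 0 this region held 95.1% and ranged from 67.0 to 124.1%. KO also crossed the WT level at ZNF414. It ranged from 77.9 to 101.9% at 2.2 kb at day 0, and from 95.1 to 106.3% at 2.5 kb under BMP4. Regions with 0 to 3 counts in a mutant library limit the percentages at the ZNF454 start, beside ZNF610 and at the ZNF671 3′ end, and changes under 2-fold between days were mostly below what the replicates could resolve.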
